A study of Homo sapiens with 18 samples.

Results

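Metallothioneins and the machinery of cellular zinc were followed through 8 genes chosen by name: the metallothioneins MT1E, MT1F, MT1G, MT1M, MT1X and MT2A, the transcription factor MTF1 and the zinc exporter SLC30A1. All 8 were found among the 56269 genes of the table. The study asked how hyaluronan (HA) of very high molecular mass, made by naked mole-rat skin fibroblasts (NSF), changes the transcriptome of IMR90 cells, a human lung fibroblast line, before and after oxidative stress. Pre-incubation lasted 6 h, in PBS, in cNSF-HA at 20 μg/ml or in fNSF-HA at 20 μg/ml. cNSF-HA is the heated control that keeps its polymer length, and fNSF-HA was partly cut with hyaluronidase. In 9 of the 18 libraries the cells were then given 200 μM tert-butyl hydroperoxide (tBHP), an organic peroxide, for 1 h and were collected 5 h after that hour ended. The paper states that the HA was removed before tBHP was given. There were thus 6 groups, a group without and a group with tBHP for each pre-incubation, and each had 3 replicates. The libraries without tBHP were taken when the pre-incubation ended. Effects of tBHP exposure, the removal step before it and the later time of collection thus cannot be told apart. All groups are of 1 cell line, with 1 dose of HA and of tBHP and 1 time of collection after tBHP. The study describes its replicates as biological, and the labels do not say whether those of a group were separate cultures, so p-values measure the spread between these libraries.

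Metallothioneins are small proteins in which cysteines make up a large part of the chain and hold zinc and copper in clusters of thiolates. Oxidants attack these thiolates and set zinc free, and the free zinc is sensed by MTF1, which binds metal response elements and switches on the metallothionein genes and SLC30A1. SLC30A1, also called ZnT1, carries zinc out of the cell, so both arms lower free zinc. In fibroblasts MT2A is commonly the main metallothionein, while several MT1 genes are kept low until metal or stress arrives.

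The 6 metallothionein members lie in 1 cluster at chr16:56608199-56684196 (GRCh38, GENCODE release 29), which spans 75998 bp. MT1G is the 1 member on the minus strand, and the other 5 are on the plus strand. MTF1 lies at chr1:37809567-37859620 and SLC30A1 at chr1:211571568-211578742, both on the minus strand. Each of the 6 coding sequences has 183 bases without the stop codon, or 61 codons, of which 20 encode cysteine. The coding sequences of MT2A and MT1G are shown because these genes were, as described later, the highest in level and the largest in response, while they are the pair most alike, with 95.1% of bases identical and 9 columns different. Capitals mark the cysteine codons.

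MT2A coding sequence: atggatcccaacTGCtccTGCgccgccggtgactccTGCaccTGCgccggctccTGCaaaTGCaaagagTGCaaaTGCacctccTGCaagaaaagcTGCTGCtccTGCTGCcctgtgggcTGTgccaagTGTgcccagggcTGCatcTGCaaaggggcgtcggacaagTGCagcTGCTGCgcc
MT1G coding sequence: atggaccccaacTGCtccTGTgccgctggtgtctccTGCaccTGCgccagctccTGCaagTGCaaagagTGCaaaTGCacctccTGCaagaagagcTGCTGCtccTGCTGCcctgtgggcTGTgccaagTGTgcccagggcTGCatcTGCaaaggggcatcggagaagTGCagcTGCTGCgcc

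The least alike pair, MT1F and MT1X, shared 88.5% of bases. Reads of 100 nt could still be placed: none of the 100 nt windows in the principal transcripts of MT1E, MT1F, MT1G, MT1M, MT2A, MTF1 and SLC30A1 was found unchanged in a transcript of another gene. In MT1X, 67 of 351 windows (19.1%) were also found in AC026461.1, a transcript on the same strand that overlaps 321 exonic bases of MT1X. Reads that touch those 321 bases may not have been given to 1 gene where the annotation holds both. The principal MT1X transcript has 450 bases, so the uncertainty of its level can exceed the share of windows.

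Promoter sequences of 250 bases before the start site came from RefSeq (GRCh38.p14) and were held for MT2A, MT1X, MTF1 and SLC30A1, 4 of the 8 members. RefSeq places the starts of these 4 members elsewhere than GENCODE. The MT2A window lies inside the GENCODE gene, and those of MT1X and MTF1 reach into theirs. That of SLC30A1 starts beyond the end coordinate of its GENCODE gene. The windows are shown because MTF1 acts through metal response elements. MT1H, another gene of the cluster, is added because its reads appeared only with tBHP. Capitals mark the metal response element core, TGCGCNC or TGCACNC on either strand, written 5′ to 3′ along the gene.

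MT2A, chr16:56608334-56608583, plus strand: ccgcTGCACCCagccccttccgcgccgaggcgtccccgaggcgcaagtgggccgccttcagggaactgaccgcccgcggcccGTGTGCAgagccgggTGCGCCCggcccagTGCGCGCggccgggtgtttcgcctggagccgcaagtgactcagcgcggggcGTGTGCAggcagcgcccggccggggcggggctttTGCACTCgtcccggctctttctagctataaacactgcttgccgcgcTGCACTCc
MT1X, chr16:56682220-56682469, plus strand: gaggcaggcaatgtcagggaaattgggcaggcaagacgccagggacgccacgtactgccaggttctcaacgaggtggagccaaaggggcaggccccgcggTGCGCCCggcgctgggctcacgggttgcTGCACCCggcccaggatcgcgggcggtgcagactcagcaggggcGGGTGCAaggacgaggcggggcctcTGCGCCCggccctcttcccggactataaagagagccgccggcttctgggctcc
MT1H, chr16:56669564-56669813, plus strand: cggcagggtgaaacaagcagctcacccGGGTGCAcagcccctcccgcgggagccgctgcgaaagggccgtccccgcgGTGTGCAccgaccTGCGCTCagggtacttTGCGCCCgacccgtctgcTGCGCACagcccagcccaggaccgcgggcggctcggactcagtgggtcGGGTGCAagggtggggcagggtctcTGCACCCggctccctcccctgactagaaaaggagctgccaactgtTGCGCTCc
SLC30A1, chr1:211579162-211579411, minus strand: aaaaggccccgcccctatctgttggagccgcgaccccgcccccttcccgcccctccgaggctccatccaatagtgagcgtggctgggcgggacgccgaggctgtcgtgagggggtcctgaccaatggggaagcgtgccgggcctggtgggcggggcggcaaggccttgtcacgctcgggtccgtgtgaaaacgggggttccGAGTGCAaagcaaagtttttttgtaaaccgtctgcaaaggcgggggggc
MTF1, chr1:37859593-37859842, minus strand: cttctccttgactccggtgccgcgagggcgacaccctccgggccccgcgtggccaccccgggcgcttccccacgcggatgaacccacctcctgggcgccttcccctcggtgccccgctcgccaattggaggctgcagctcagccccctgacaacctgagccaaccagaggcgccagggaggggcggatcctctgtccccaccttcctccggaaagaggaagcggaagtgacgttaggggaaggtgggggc

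The windows of MT1B and MT4, also of the cluster and not printed, held 3 cores each, while MT1B had at most 2 reads in all in any group and MT4 had 0. The MT2A window held 7 cores, that of MT1X 4, that of MT1H 8 and that of SLC30A1 1, and the window of MTF1 held 0. Over 27305 promoter windows of the same length, 24.7% held at least 1 core, 1.56% at least 3, 0.366% at least 4 and 0.121% at least 5. The core of the antioxidant response element, TGACNNNGC on either strand, was found 1 time each in MT2A, MT1X and SLC30A1 and 0 times in MTF1 and MT1H, against 11.03% of all windows with at least 1. No position was shared between the cores of both kinds in these windows. These matches are letters and say nothing of binding in these cells.

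The deposited values are reads per gene divided by a size factor of the library, called normalised counts below. Libraries held 20261103 to 26287660 reads on genes. Fibroblast markers were high in every library (COL1A1 from 160232 to 337705 normalised counts), while epithelial, endothelial and leukocyte markers reached at most 10 reads in any library, with SFTPC, KRT5 and CDH5 at 0. In bulk RNA, fewer cells that express a gene and less RNA of it per cell cannot be told apart. Differences were tested on log2(normalised count + 1) with limma over the 13686 genes with a mean of at least 10, which understates folds of low genes, and a gene is called where the adjusted p is under 0.05. The median SD of a gene within a group was 0.067 on the log2 scale without tBHP and 0.17 with it. The libraries with tBHP also differed by GC content: in the fNSF-HA + tBHP replicate 2 library, the GC-richest decile of genes (median GC 64.3%) deviated by a median of -0.80 (log2) from the average library with tBHP, while the other 8 libraries lay between -0.20 and 0.34. Transcripts of MT2A (63.0% GC), MT1M (62.5%), MT1F (59.9%) and MT1E (59.5%) are GC-rich against the median of 48.6% over the genes tested, that of SLC30A1 is GC-poor (38.0%), and MT1G (52.7%), MT1X (50.9%) and MTF1 (46.7%) lie between. Responses are therefore also given from a fit with the trend of each library with transcript GC and length removed. That trend was taken from deviations from the mean of all 18 libraries, so any tBHP response that follows GC or length is removed too.

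Before tBHP, the members covered a wide range of levels. Per kb of the principal transcript, the mean normalised count in PBS cells was 24693 ± 2694 (SD, n = 3) for MT2A, 2698 ± 104 for MT1E and 204 ± 17.6 for MT1X. On the same scale it was 147 ± 7.25 for SLC30A1 and 88.5 ± 2.98 for MTF1. MT1F (6.22 ± 0.79), MT1G (3.77 ± 1.30) and MT1M (1.15 ± 1.16) stood lowest, on 14, 5 and 3 reads in all in the 3 PBS libraries, so that the order among MT1G and MT1M is not resolved at this depth. After tBHP in PBS cells the order per kb became MT2A (29171 ± 6185), MT1E (4375 ± 536), MT1X (751 ± 137) and MT1G (436 ± 81.7). MT1G had moved above MTF1 (124 ± 4.16) and SLC30A1 (123 ± 15.2), which did not differ beyond their spread, nor did MT1F (30.2 ± 18.04) and MT1M (25.8 ± 5.31).

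**Figure D1:**
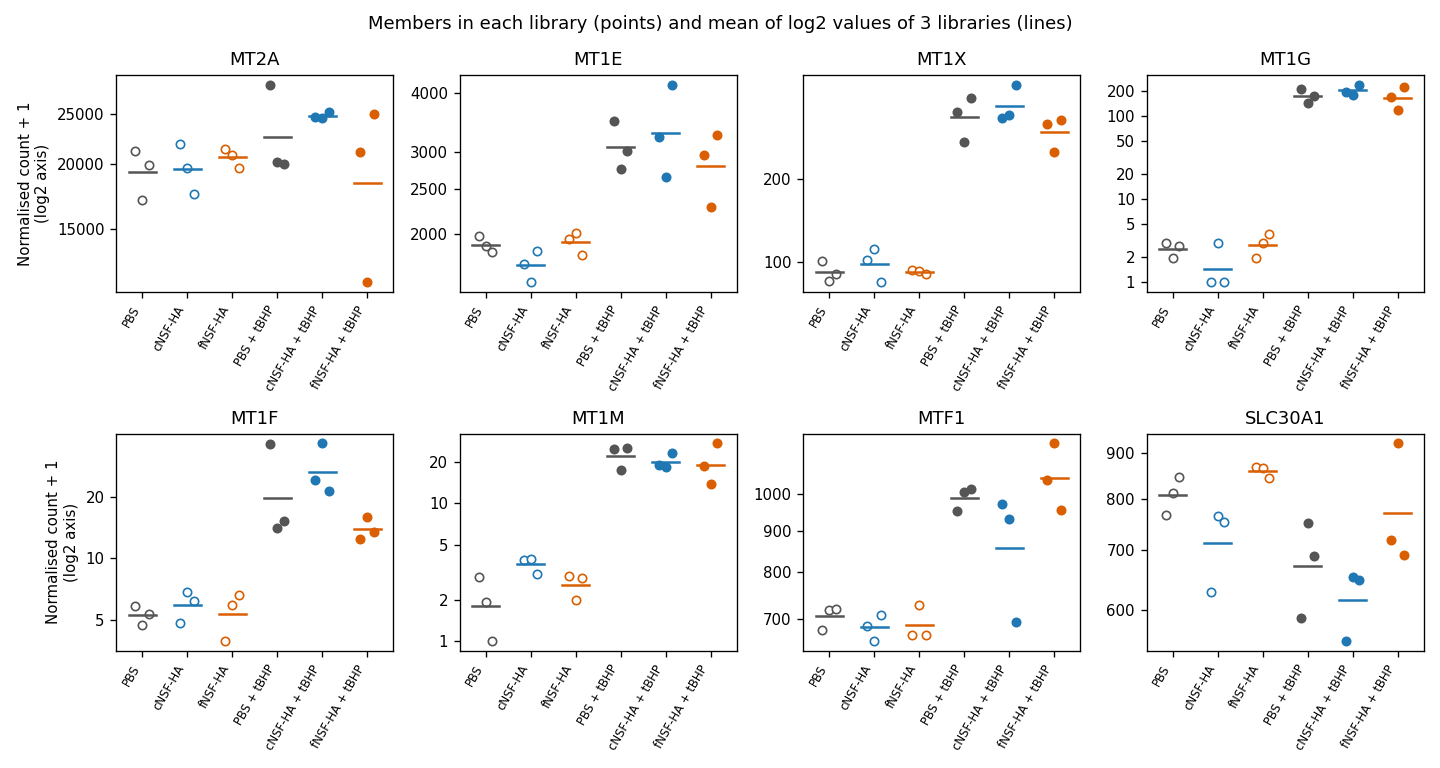
Normalised count + 1 (log2 axis, a separate range in each panel) of the 8 members in each of the 18 libraries, by group on the x axis. Open points are libraries without tBHP, filled points libraries with tBHP, and lines the mean of the log2 values of 3 libraries. MT1G lies at 0 to 3 reads in the 9 libraries without tBHP and between 117 and 240 normalised counts in the 9 with it, and the lowest MT2A point, 11814 normalised counts, is fNSF-HA + tBHP replicate 2.

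With tBHP, 6 of the 8 members rose after every pre-incubation: MT1E, MT1F, MT1G, MT1M, MT1X and MTF1. MT2A and SLC30A1 were not called in any of the 3 responses as fitted here, and the settings that change this are given with their values. tBHP moved much of the transcriptome, and genes called higher made up 24.2% of the genes tested in PBS cells, 24% after cNSF-HA and 19.2% after fNSF-HA. Genes called lower made up 26.9%, 26.8% and 22.7%, and genes called in either direction 51.1%, 50.8% and 41.9%. Libraries with tBHP lay above those without, with no overlap, for 6 members in each pre-incubation: the 5 MT1 genes in all of them, with MTF1 in PBS and fNSF-HA cells and with MT2A in cNSF-HA cells. Of the genes tested, 31.8%, 31.4% and 22.6% showed the same. MT1F, MT1G and MT1M had a mean of at least 10 only through their libraries with tBHP, so their count of calls is no separate support. The median response of the 6 metallothioneins was 1.88, 2.04 and 1.53 (log2) in PBS, cNSF-HA and fNSF-HA cells, beside 0.0043, -0.00053 and -0.034 over the genes tested. That median rests on these 3 genes too, and the middle value of MT1E, MT1X and MT2A alone was 0.69, 0.94 and 0.54.

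MT1G, one of the inducible MT1 genes, had the largest fitted response of the members. It had 2, 1 and 2 reads in PBS replicates 1 to 3, and 186, 133 and 160 reads in PBS + tBHP. It had 0, 2 and 0 reads in cNSF-HA against 187, 178 and 236 in cNSF-HA + tBHP, and 1, 2 and 3 reads in fNSF-HA against 194, 110 and 200 in fNSF-HA + tBHP. Libraries with and without tBHP were far apart in each pre-incubation. The ratio of normalised reads was 115 in PBS cells (95% counting interval 49.0 to 356), 313 after cNSF-HA (86.2 to 2589) and 88.2 after fNSF-HA (40.3 to 242). These intervals are exact binomial ones, cover counting error only and overlap each other. On the log2(normalised count + 1) scale the response was 6.14 (SE 0.38, limma adjusted p = 6.14e-10), 7.16 (8.80e-11) and 5.89 (1.24e-09), and 5.99, 6.92 and 5.74 with the GC and length trend removed.

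MT1M, a second low MT1 gene, had 1.93, 0.933 and 0 normalised counts in PBS and 23.8, 16.3 and 24.1 in PBS + tBHP. In cNSF-HA it had 2.86, 2.93 and 2.07, and 17.9, 17.2 and 22.4 with tBHP. In fNSF-HA it had 1.96, 0.985 and 1.86, and 17.5, 12.8 and 26.2 with tBHP. The ranges did not overlap in any pre-incubation. The ratio of normalised reads was 23.3 (7.57 to 116) in PBS cells, on 58 against 3 reads, 7.29 (3.46 to 17.7) after cNSF-HA and 11.6 (4.66 to 37.0) after fNSF-HA. Its response on the log2 scale was 3.63, 2.48 and 2.90 (limma adjusted p from 1.21e-06 to 8.10e-05), and 3.31, 2.03 and 2.81 with the GC and length trend removed.

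MT1X had 100, 84.9 and 89.9 normalised counts in PBS and 350, 271 and 393 in PBS + tBHP. In cNSF-HA it had 101, 110 and 83.7, against 332, 339 and 438 with tBHP. In fNSF-HA it had 93.2, 91.6 and 89.4, against 316, 250 and 326 with tBHP. All 9 libraries with tBHP lay above all 9 without. The log2 response was 1.86, 1.90 and 1.68 (SE 0.15 each) in PBS, cNSF-HA and fNSF-HA cells, with limma adjusted p of 2.24e-08, 1.97e-08 and 9.11e-08, and 1.74, 1.69 and 1.55 with the GC and length trend removed.

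MT1F stayed low throughout. It had 4.83, 3.73 and 4.32 normalised counts in PBS, and 35.2, 13.1 and 14.2 with tBHP. It had 3.82, 5.86 and 5.17 in cNSF-HA, and 23.2, 35.5 and 20.3 with tBHP, while fNSF-HA gave 2.94, 4.93 and 5.59, and 11.4, 14.9 and 12.5 with tBHP. The groups with tBHP lay above those without in each case, but PBS + tBHP replicate 1 stood at more than the level of the other two libraries of its group together. The log2 response was 1.91, 2.18 and 1.37 (SE 0.37 each) in PBS, cNSF-HA and fNSF-HA cells, with limma adjusted p of 0.000332, 9.99e-05 and 0.00599. It was 1.63, 1.77 and 1.26 with the GC and length trend removed.

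MT1E, the second most abundant metallothionein, rose from 1978, 1888 and 1833 normalised counts in PBS to 3490, 2747 and 3005 in PBS + tBHP. It rose from 1729, 1578 and 1842 in cNSF-HA to 3223, 2643 and 4169, and from 1950, 2005 and 1807 in fNSF-HA to 2953, 2279 and 3247. Every library with tBHP exceeded every library without. The log2 response was 0.69, 0.94 and 0.54 (SE 0.14 each), or 1.61-fold, 1.92-fold and 1.46-fold, with limma adjusted p of 0.000521, 2.82e-05 and 0.00454. With the GC and length trend removed it was smaller, at 0.41, 0.54 and 0.43, and still called (limma adjusted p from 1.26e-06 to 3.61e-05).

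MT2A, which held most metallothionein RNA, was not called in any pre-incubation. It had 21184, 17065 and 19976 normalised counts in PBS and 28541, 20187 and 20056 in PBS + tBHP. In cNSF-HA it had 21927, 19643 and 17549 against 24662, 24572 and 25224 with tBHP. In fNSF-HA it had 21446, 20821 and 19677 against 21152, 11814 and 24999 with tBHP. The groups overlapped in PBS and in fNSF-HA cells, and in cNSF-HA cells all 3 libraries with tBHP were above all 3 without. The log2 response was 0.23 in PBS cells (95% interval -0.18 to 0.63, limma adjusted p = 0.339), 0.34 after cNSF-HA (-0.063 to 0.74, 0.149) and -0.16 after fNSF-HA (-0.57 to 0.24, 0.523). Without the fNSF-HA + tBHP replicate 2 library the last value was 0.16. With the GC and length trend removed the values were -0.11, -0.12 and -0.24, the last with a limma adjusted p of 0.0245. A change of MT2A by a factor as large as that of MT1X lies outside the interval in each pre-incubation.

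The makeup of metallothionein RNA shifted with these unequal responses. Of the summed normalised counts of the 6 genes, MT2A made up 90.6% ± 0.87 (SD, n = 3) in PBS and 86.2% ± 1.34 in PBS + tBHP. MT1E went from 8.93% ± 0.86 to 11.7% ± 1.00, MT1X from 0.43% ± 0.018 to 1.30% ± 0.32, and MT1G from 0.0070% ± 0.0019 to 0.67% ± 0.063. MT2A went from 91.5% ± 1.21 to 86.3% ± 2.36 after cNSF-HA, and from 91.1% ± 0.24 to 84.7% ± 2.77 after fNSF-HA. MT1G reached 0.71% ± 0.075 and 0.76% ± 0.063 of the sum in these cells. The sum itself was 21406 ± 2158 in PBS and 26565 ± 5272 in PBS + tBHP, 21530 ± 2147 and 28785 ± 1197 after cNSF-HA, and 22668 ± 982 and 22649 ± 7376 after fNSF-HA. Shares are of reads, so longer transcripts weigh more.

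**Figure D2:**
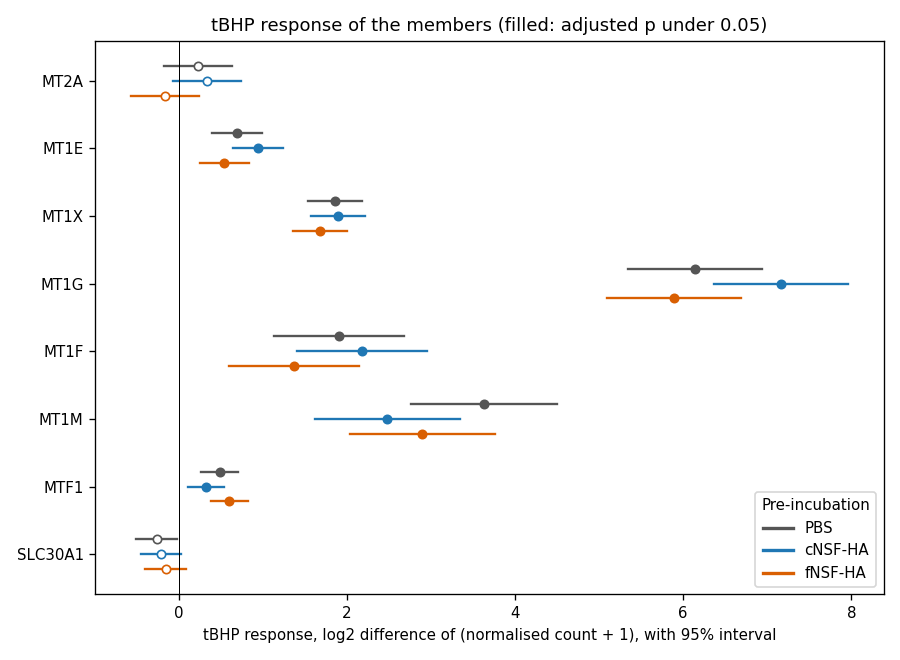
tBHP response of each member (x axis, log2 difference of normalised count + 1, tBHP minus no tBHP) in cells pre-incubated with PBS, cNSF-HA or fNSF-HA, with 95% intervals from limma. Filled points have an adjusted p under 0.05. The responses run from above 5 for MT1G to about 0 for MT2A, and those of SLC30A1 lie between -0.26 and -0.16.

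MTF1, the zinc sensor, rose in each pre-incubation. It had 678, 718 and 720 normalised counts in PBS and 951, 1004 and 1012 in PBS + tBHP. It had 685, 657 and 708 in cNSF-HA and 971, 930 and 694 with tBHP, and 669, 728 and 668 in fNSF-HA and 1038, 1153 and 953 with tBHP. The ranges were apart in PBS and fNSF-HA cells, while cNSF-HA + tBHP replicate 3 fell within the range of cNSF-HA. The log2 response was 0.49 (limma adjusted p = 0.000773), 0.33 (0.0141) and 0.60 (0.000141), with an SE of 0.10 each. The call in cNSF-HA cells was lost on leaving out cNSF-HA replicate 2 (log2 0.30, limma adjusted p = 0.0533), cNSF-HA + tBHP replicate 1 (0.23, 0.0839) or cNSF-HA + tBHP replicate 2 (0.26, 0.0675), and the value was 0.49 with the GC and length trend removed (6.12e-08). In that fit the response was 0.51 in PBS cells and 0.65 after fNSF-HA.

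SLC30A1, which MTF1 is known to switch on, did not rise with the MT1 genes on the deposited scale. It had 766, 811 and 845 normalised counts in PBS and 587, 751 and 688 in PBS + tBHP. It had 628, 763 and 752 in cNSF-HA against 552, 651 and 646 with tBHP, and 867, 865 and 844 in fNSF-HA against 718, 922 and 690 with tBHP. All 3 libraries with tBHP were below all 3 without in PBS cells, where 32% of the genes tested showed the same, and the ranges overlapped in the other pre-incubations. The log2 response was -0.26 (95% interval -0.50 to -0.022, limma adjusted p = 0.0638), -0.21 (-0.45 to 0.031, 0.136) and -0.16 (-0.40 to 0.084, 0.294). It was called lower in PBS cells with the replicate block (-0.26, limma adjusted p = 0.0240), in a fit of the compared groups (0.0335) and without PBS + tBHP replicate 2 (-0.34, 0.0302), and after fNSF-HA without fNSF-HA + tBHP replicate 2 (-0.29, 0.0278). The direction turned with the GC and length trend removed: 0.21 in PBS cells (limma adjusted p = 0.0195), 0.28 after cNSF-HA (0.00306) and 0.13 after fNSF-HA (0.127). The direction of SLC30A1 is thus not settled by these values.

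Deviations of members lay beside the GC trend in several libraries with tBHP, and not for every member in every library. In fNSF-HA + tBHP replicate 2, MT2A lay at -0.88, MT1G at -0.62 and MT1E at -0.42 (log2) from its average over those 9 libraries, while MTF1 lay at 0.26 and SLC30A1 at 0.43. In cNSF-HA + tBHP replicate 3, where the GC-richest decile lay at 0.34, MT1E was at 0.45, MT1G at 0.41 and MT2A at 0.21, and MTF1 was at -0.47. With the trend removed, MT2A in fNSF-HA + tBHP replicate 2 was at -0.11, MT1E at 0.15, MTF1 at 0.086 and SLC30A1 at -0.026, and MT1G stayed at -0.44. In cNSF-HA + tBHP replicate 3, the removal turned MT2A from 0.21 to -0.24. In PBS + tBHP replicate 1, where the decile lay at 0.31, all 6 metallothioneins were above their average, with MT2A at 0.39 and MT1E at 0.20, and SLC30A1 was at -0.22. With the trend removed these 3 genes were at 0.17, 0.064 and -0.0019. In fNSF-HA + tBHP replicate 1, where the decile lay at -0.20, all 6 metallothioneins were below their average. MT1F lay on the other side of the average from the GC-richest decile in fNSF-HA + tBHP replicate 3, at -0.52 against 0.17.

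**Figure D3:**
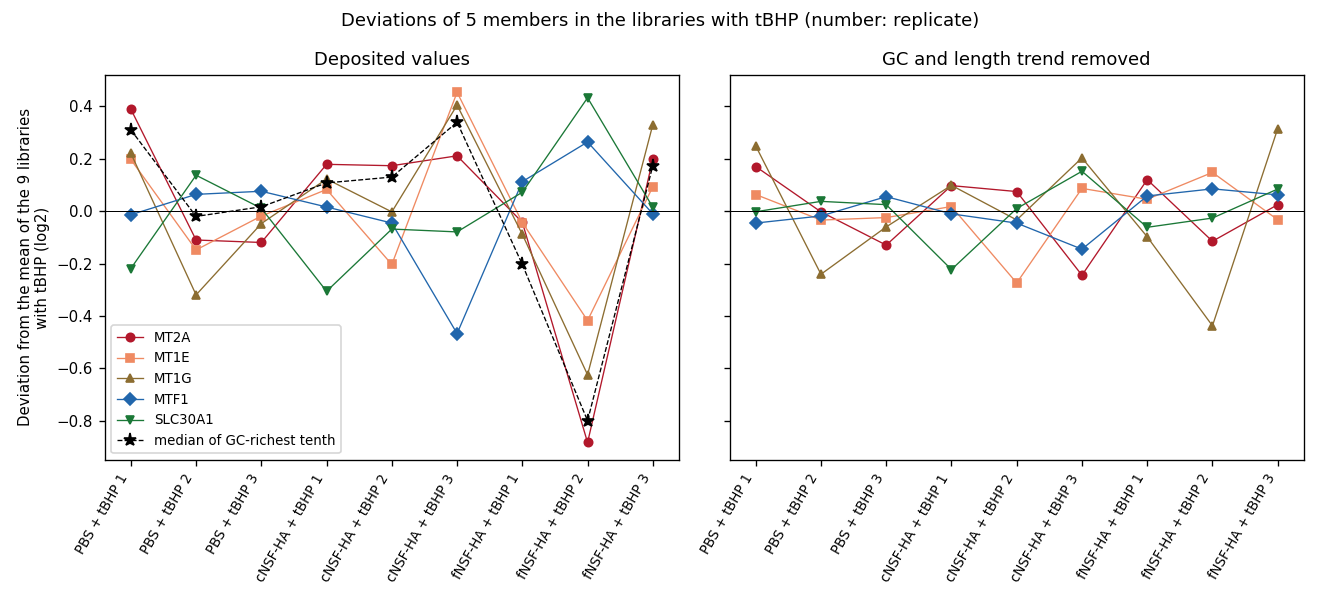
Deviation (y axis, log2) of MT2A, MT1E, MT1G, MTF1 and SLC30A1 from their mean over the 9 libraries with tBHP, for each library on the x axis, as deposited (left) and with the GC and length trend removed (right). Stars in the left panel show the median deviation of the GC-richest decile of genes, which is -0.80 in fNSF-HA + tBHP replicate 2, where MT2A is at -0.88 as deposited and at -0.11 with the trend removed.

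The 3 comparisons between pre-incubations share their groups, so their values are not independent. They ask whether HA, and its polymer length, set metallothionein levels. Without tBHP, 0 of the 8 members were called in cNSF-HA against PBS, in fNSF-HA against PBS or in cNSF-HA against fNSF-HA, and the background was 0% of genes tested in each. With limma, 126, 109 and 206 of the genes tested had an unadjusted p under 0.05 in these comparisons, DESeq2 called 0, 3 and 0 genes and edgeR called 0 in each, with 0 members among them. For MT2A the difference from PBS was 0.022 (95% interval -0.38 to 0.42) in cNSF-HA and 0.094 (-0.31 to 0.50) in fNSF-HA, on the log2 scale. For MT1E it was -0.15 (-0.44 to 0.15) and 0.015 (-0.28 to 0.31), for MT1X 0.095 (-0.22 to 0.41) and -0.0020 (-0.32 to 0.32), and for MTF1 -0.046 (-0.26 to 0.17) and -0.035 (-0.25 to 0.18).

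SLC30A1 was lower in all 3 cNSF-HA libraries than in all 3 PBS libraries and all 3 fNSF-HA libraries. Genes with no overlap in this direction made up 8.33% and 17.1% of those tested. The log2 difference was -0.18 (-0.42 to 0.060) from PBS and -0.27 (-0.51 to -0.030, limma adjusted p = 1.00, unadjusted 0.0297) from fNSF-HA. These values were -0.11 and -0.16 with the GC and length trend removed. A fit of the cNSF-HA and fNSF-HA libraries alone called it (limma adjusted p = 0.00395), as it did MT1E (-0.16, 0.0223), and 980 genes in all. The 3 MT1M values in cNSF-HA were above those of PBS and fNSF-HA (no overlap in this direction in 6.89% and 7.91% of genes), on 8 reads against 3 and 5 in all, which is too few to resolve a difference. MT1G had 2 reads in all in cNSF-HA, 5 in PBS and 6 in fNSF-HA.

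With tBHP, 0 of the 8 members were called in any of the 3 comparisons of pre-incubations, where the background was 0% for cNSF-HA against PBS, 0.139% for fNSF-HA against PBS and 0% for cNSF-HA against fNSF-HA. The counts of genes with an unadjusted p under 0.05 were 1183, 3102 and 4412, DESeq2 called 9, 451 and 793 genes and edgeR 0, 36 and 0, again with 0 members, where DESeq2 gave MT1F and MT1M no adjusted p. Between cNSF-HA and fNSF-HA, the log2 difference was 0.43 for MT2A (0.028 to 0.83), 0.23 for MT1E (-0.061 to 0.53), 0.31 for MT1X (-0.0064 to 0.63), 0.30 for MT1G (-0.50 to 1.10), 0.94 for MT1F (0.17 to 1.71) and 0.072 for MT1M (-0.79 to 0.94). All 6 metallothioneins had a positive value, with a median of 0.31 beside -0.029 over the genes tested. MT1F and MT1X were higher in all 3 cNSF-HA + tBHP libraries than in all 3 fNSF-HA + tBHP libraries, as were 5.07% of genes tested. MTF1 (-0.29, -0.51 to -0.070) and SLC30A1 (-0.32, -0.57 to -0.084) went the other way, both with a limma adjusted p of 0.0981, and SLC30A1 had no overlap, as did 8.29% of genes in that direction.

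The same differences were smaller in size for every member but MT1M with the GC and length trend removed. In that fit, the log2 difference between cNSF-HA and fNSF-HA with tBHP was -0.034 for MT2A, -0.11 for MT1E, 0.22 for MT1X, 0.16 for MT1G, 0.58 for MT1F and -0.37 for MT1M, and -0.14 for MTF1 and -0.019 for SLC30A1. Leaving out fNSF-HA + tBHP replicate 3, which keeps the library with the strongest GC trend as 1 of 2, gave calls for MT2A (0.65, limma adjusted p = 0.00833), MTF1 (-0.35, 0.0168) and SLC30A1 (-0.40, 0.0137) and 5586 genes in all. Without fNSF-HA + tBHP replicate 2, the MT2A difference was 0.11. From PBS + tBHP, the differences of the metallothioneins lay between -0.14 and 0.43 in cNSF-HA + tBHP and between -0.51 and -0.079 in fNSF-HA + tBHP, with every 95% interval including 0. With the GC and length trend removed, the difference of fNSF-HA + tBHP was 0.052 for MT1E, 0.065 for MT1M and -0.0027 for MT2A, and that of cNSF-HA + tBHP was -0.058 for MT1E and -0.037 for MT2A.

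**Figure D4:**
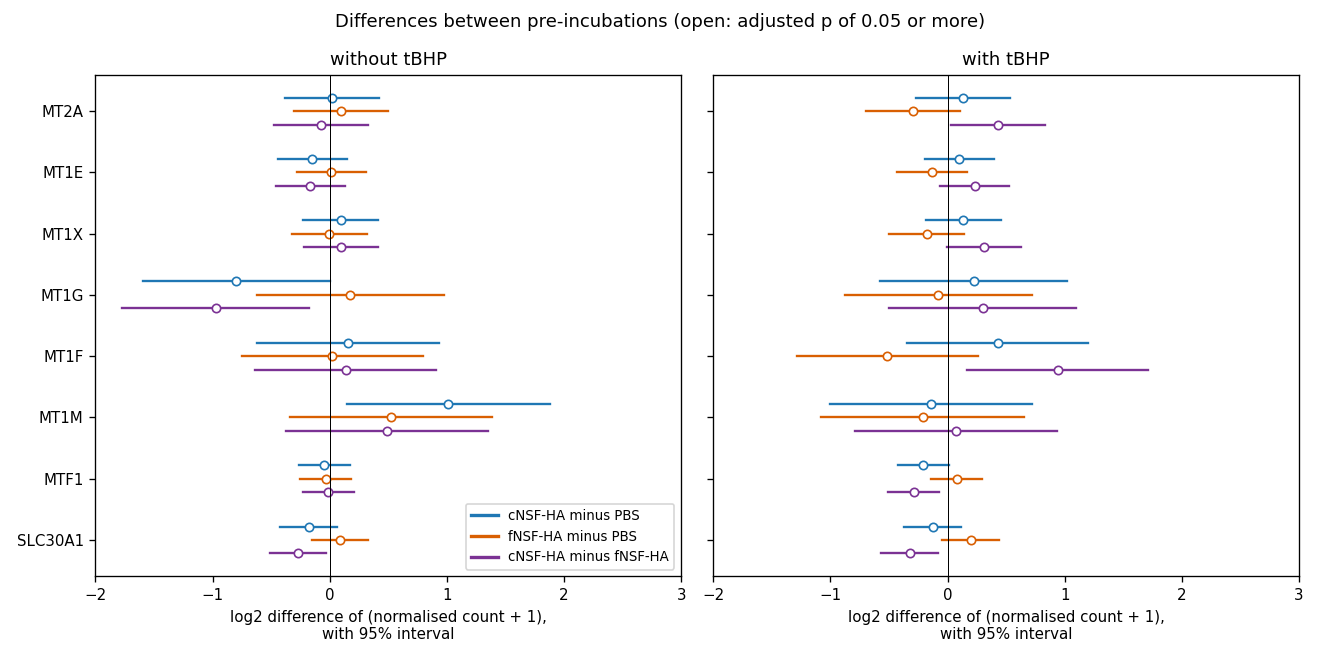
Log2 differences of normalised count + 1 between pre-incubations (x axis) for the 8 members, without tBHP (left) and with tBHP (right), with 95% intervals from limma. All points are open, since no adjusted p was under 0.05. With tBHP the 6 metallothioneins lie above 0 for cNSF-HA minus fNSF-HA (0.072 to 0.94), and MTF1 and SLC30A1 lie below (-0.29 and -0.32).

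Differences between the responses were tested as interactions. Of the 8 members, 0 were called for cNSF-HA against PBS, fNSF-HA against PBS or cNSF-HA against fNSF-HA, with a background of 0% in each and unadjusted p under 0.05 for 555, 942 and 533 genes. DESeq2 called 0, 6 and 0 genes and edgeR 0 in each. For MT1G, the response was larger by 1.28 (95% interval 0.15 to 2.40, unadjusted p = 0.0289, limma adjusted p = 0.710) after cNSF-HA than after fNSF-HA, a value that rests on the 2 and 6 reads before tBHP and ran from 0.60 to 3.07 over the alternatives other than leaving out a library, the extremes with pseudocounts of 5 and 0.1. Against PBS, the MT1G response differed by 1.02 (-0.11 to 2.15) after cNSF-HA and by -0.26 (-1.38 to 0.87) after fNSF-HA. MT1M, also near 0 reads before tBHP, differed the other way, by -1.15 (-2.38 to 0.069, unadjusted p = 0.0629, limma adjusted p = 0.999) for cNSF-HA against PBS, by -0.74 (-1.96 to 0.49) for fNSF-HA against PBS and by -0.42 (-1.64 to 0.80) for cNSF-HA against fNSF-HA. For MT1X, the difference of responses was 0.040 (-0.41 to 0.49) for cNSF-HA against PBS and -0.18 (-0.63 to 0.27) for fNSF-HA against PBS. For MTF1 it was -0.16 (-0.47 to 0.15) and 0.12 (-0.19 to 0.42).

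The other metallothionein genes and pseudogenes, 12 by name of which 11 were in the table and 8 had a read, were near 0 apart from MT1L. This pseudogene, the 1 high enough to test, had 237 ± 10.3 normalised counts in PBS and 216 ± 74.7 in PBS + tBHP (log2 -0.18, limma adjusted p = 0.413). It was called lower without PBS + tBHP replicate 1 (-0.44, limma adjusted p = 0.0194) and with the GC and length trend removed (-0.35, 0.0406). MT1H, chosen after its values were seen, had 0 reads in all 9 libraries without tBHP, and 8, 22 and 9 reads in PBS + tBHP, cNSF-HA + tBHP and fNSF-HA + tBHP. Set against a floor of 3 reads over the group, the ratio of its levels was 3.21, 7.64 and 3.15. With the counting error of the reads with tBHP included, MT1H was at least 2.05-fold, 5.70-fold and 2.07-fold higher (exact 95% limits, counting error only).

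Zinc transporters other than SLC30A1 were called in both directions, as were the genes tested as a whole (24.2% higher and 26.9% lower in PBS cells). The SLC30 family carries zinc out of the cytosol, and 6 of its 9 other genes were tested. In PBS cells 1 was called higher and 4 lower, with a median of -0.47 (log2), 1 and 5 after cNSF-HA (median -0.48), and 1 and 3 after fNSF-HA (median -0.25). SLC30A3, which loads zinc into vesicles, rose from 9.98 ± 4.48 to 32.2 ± 6.92 normalised counts in PBS cells (log2 1.68, limma adjusted p = 0.00231), and by 2.51 and 2.45 in cNSF-HA and fNSF-HA cells. Its mean was under 10 in every group without tBHP, so it was tested only through its libraries with tBHP, and it is the 1 gene counted as higher in each response. SLC30A4, an exporter of endosomal membranes, fell from 193 ± 11.8 to 71.5 ± 23.0 (log2 -1.47, 2.07e-05), and by 1.46 and 0.89 in cNSF-HA and fNSF-HA cells. SLC30A9 (-0.63), SLC30A5 (-0.50) and SLC30A6 (-0.44) were lower in PBS cells. With the GC and length trend removed, these smaller values were -0.22, -0.12 and 0.054, of which SLC30A9 was still called, and the counts were 2 higher and 2 lower with a median of -0.031. After cNSF-HA that fit called 1 higher and 1 lower, SLC30A4, with SLC30A5 at -0.063, SLC30A9 at -0.094, SLC30A6 at 0.16 and SLC30A7 at 0.081, and after fNSF-HA it called 3 higher and 3 lower. Of all its genes, that fit called 58.1%, 56.9% and 56.9% in either direction in PBS, cNSF-HA and fNSF-HA cells. Without cNSF-HA + tBHP replicate 3, 3 genes were called lower after cNSF-HA in place of 5, and without fNSF-HA + tBHP replicate 2, 5 were called lower after fNSF-HA in place of 3. Calls over all genes went the same way in these settings, from 6947 to 6195 and from 5733 to 6930. With the GC and length trend removed, SLC30A3 (1.35) and SLC30A4 (-1.11) kept their calls in PBS cells.

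The SLC39 family brings zinc into the cytosol, and 10 of its 14 genes were tested. In PBS cells 2 were called higher and 2 lower (median -0.064), 1 and 2 after cNSF-HA (median 0.056), and 2 and 4 after fNSF-HA (median -0.14). Over all genes tested, 51.1%, 50.8% and 41.9% were called in either direction. SLC39A10, an importer of the plasma membrane, fell from 1289 ± 69.6 to 502 ± 82.9 normalised counts in PBS cells (log2 -1.37, limma adjusted p = 3.04e-07), and by 1.48 and 1.17 in cNSF-HA and fNSF-HA cells. SLC39A6, its close relative, was at -0.49, and SLC39A7, which releases zinc from the endoplasmic reticulum, was at 0.25, as was SLC39A14 at 0.24. The call of SLC39A14 was lost with quantile normalization (limma adjusted p = 0.0778), with no filter (0.0539) and on leaving out PBS replicate 1 or 3 or PBS + tBHP replicate 1 or 3 (0.0569 to 0.0861). With the GC and length trend removed, SLC39A10 was at -0.88 and SLC39A6 at -0.18, both still called, SLC39A7 was at 0.057 and not called, and 2 genes were higher and 5 lower in PBS cells, where that fit called 58.1% of its genes in either direction. That fit called 2 higher and 5 lower after cNSF-HA and 2 and 6 after fNSF-HA, where it called 56.9% of its genes in each response. The smaller calls after fNSF-HA also rest on single libraries. Those of SLC39A3 (-0.40) and SLC39A11 (-0.27) were lost with edgeR, TMM scaling and without fNSF-HA replicate 1 or fNSF-HA + tBHP replicate 2, and those of SLC39A7 (0.21) and SLC39A14 (0.25) without fNSF-HA replicate 2 or fNSF-HA + tBHP replicate 1. SLC39A14 also lost its call without fNSF-HA replicate 3, and SLC39A7 without fNSF-HA + tBHP replicate 3. After cNSF-HA, leaving out cNSF-HA replicate 3 took the 1 higher call to 0, and leaving out replicate 3 with tBHP took it to 2. Calls over all genes went from 6947 to 5921 and to 6195 in these settings.

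**Figure D5:**
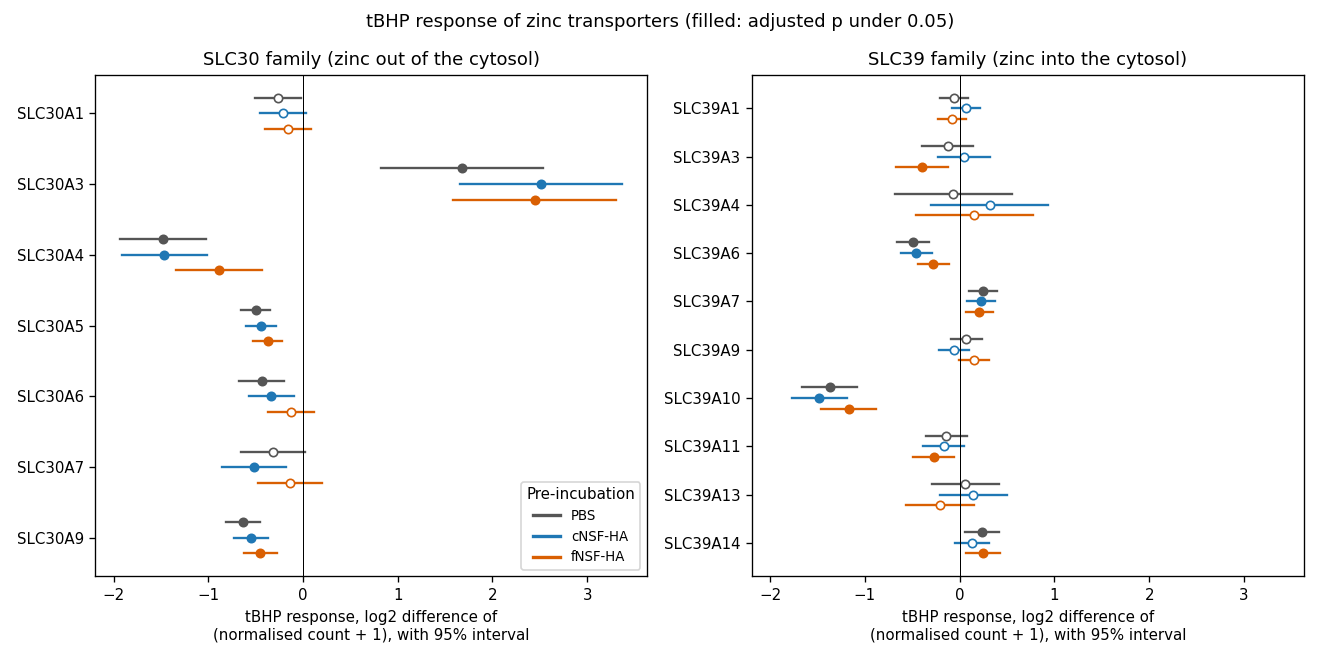
tBHP response (x axis, log2 difference of normalised count + 1, with 95% intervals from limma) of SLC30 family genes (left) and SLC39 family genes (right) in cells pre-incubated with PBS, cNSF-HA or fNSF-HA. Filled points have an adjusted p under 0.05. SLC30A3 lies at 1.68 to 2.51, SLC30A4 at -1.47 to -0.89 and SLC39A10 at -1.48 to -1.17, while SLC30A1 lies between -0.26 and -0.16.

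Metallothioneins also bind copper and are known targets of the glucocorticoid receptor, so both lists were read beside them. Of the 10 copper genes, 0 rose and 4 fell in PBS cells (median -0.10), with counts of 3 and 4 after cNSF-HA and of 0 and 3 after fNSF-HA. Over all genes tested, 24% were called higher and 26.8% lower after cNSF-HA, and 19.2% and 22.7% after fNSF-HA. ATOX1, a copper chaperone, was called higher in PBS cells with TMM scaling (0.32, limma adjusted p = 0.0306), quantile normalization (0.29, 0.0442) and a fit of the compared groups (0.26, 0.0156), and with edgeR (0.32, 0.0285). After cNSF-HA, the calls of ATOX1, CCS, ATP7A and SCO1 were lost with the GC and length trend removed (-0.058, 0.0091, 0.076 and 0.048), and those of ATP7A and SCO1 also with edgeR, TMM scaling and quantile normalization, and without cNSF-HA replicate 1 or 3. After fNSF-HA, 2 were called higher and 4 lower without fNSF-HA + tBHP replicate 2, when calls over all genes also went from 5733 to 6930. Those that fell in PBS cells were COX11 (-0.81), which helps to build cytochrome oxidase, the copper transporters SLC31A2 (-0.49) and ATP7B (-0.40), and the chaperone SCO1 (-0.27). Over all genes tested in PBS cells, 24.2% were called higher and 26.9% lower. The call of ATP7B was lost in 7 alternatives, among them edgeR (quasi-likelihood adjusted p = 0.0616), TMM scaling, and leaving out PBS replicate 1, PBS replicate 2 or PBS + tBHP replicate 3 (limma adjusted p from 0.110 to 0.122). With the GC and length trend removed, COX11 (-0.38), SLC31A2 (-0.50), ATP7B (-0.56) and SCO2 (-0.37) were called lower in PBS cells, SCO1 was not (-0.16, limma adjusted p = 0.0746), and ATP7A (0.22), SLC31A1 (0.16) and COX17 (0.38) were called higher. Of the 7 glucocorticoid receptor genes tested, TSC22D3 (1.84), KLF9 (1.13) and ERRFI1 (1.03) rose and FKBP5 (-0.43) and SGK1 (-0.27) fell in PBS cells (median 0.19), so members of this list moved both ways. After cNSF-HA 3 were called higher and 2 lower (median -0.24), and after fNSF-HA 3 and 1 (median -0.040). No gene of these lists was called in a comparison of pre-incubations.

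The genes outside these lists whose profile over the 18 libraries was closest to the mean metallothionein profile were CHAC1, NUPR1, SQSTM1, PCK2 and PDGFA. Closeness was the root mean square difference between centred log2 profiles, over 10278 genes with a mean of at least 100 normalised counts. It was 0.14 for CHAC1, which breaks down glutathione, 0.15 for the stress factor NUPR1, 0.17 for SQSTM1, an autophagy receptor, 0.20 for PCK2, a mitochondrial enzyme, and 0.22 for the growth factor PDGFA, against 0.29 for MT1X itself. The log2 responses of CHAC1, NUPR1, SQSTM1, PCK2 and PDGFA in PBS cells were 2.31, 2.33, 2.15, 2.15 and 2.22. This likeness rests on MT1F, MT1G and MT1M, which were tested only through their libraries with tBHP: the mean response in PBS cells was 2.41 over the 6 metallothioneins and 0.92 over MT1E, MT1X and MT2A. The other metallothioneins were farther from their own mean profile, at 0.43 for MT1F, 0.52 for MT1M, 0.81 for MT1E, 1.10 for MT2A and 2.08 for MT1G. These points share the step between libraries without and with tBHP.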

How the data were processed

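RNA of 18 IMR90 libraries (TruSeq RNA V2, polyA RNA, single-end reads of 100 nt) was sequenced by the authors. The submitters' processing notes name Trimmomatic 0.32, STAR 2.5.2b, featureCounts of Subread 1.5.0-p3, DESeq2 and GRCh38.p7. The deposited signal per gene is a read count scaled with a DESeq2 size factor: 100% of values were whole reads within 0.01 read, so reads were recovered. The table also holds p-values, q-values and ranks of the authors, for a comparison it does not name, and these were not used. Groups came from the labels.

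Members were matched by symbol. The members and lists were chosen with earlier results of these data known. Genes with a mean normalised count of at least 10 (13686) were tested on log2(value + 1) with limma 3.58.1 in R 4.3.3 (mean-variance trend, 1 coefficient per group, all 18 libraries, two-sided, Benjamini-Hochberg adjustment over all genes tested, threshold 0.05) in 12 comparisons. Intervals of differences are 95% intervals per gene, not adjusted for the number of comparisons. On recovered reads, edgeR 4.0.16 (quasi-likelihood, TMM) and DESeq2 1.42.0 (7281 and 7181 genes called in the response of PBS cells), other pseudocounts, filters and scalings, a replicate block, fits of the compared groups, each library left out, and removal of a GC and length trend (natural splines with 5 degrees of freedom, 91.5% of the genes tested) were alternatives. For the lists these alternatives were added after seeing the data. The scripts were tested on simulated data.

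Named genes were all 8 members, list genes called in the response of PBS cells (at most 6 per list by size of the change), and the 5 genes with a mean of at least 100 closest to the mean metallothionein profile. Other list genes the text names (MT1B, MT1H, MT1L, MT4, ATOX1, CCS, ATP7A, SCO2, COX17, SLC31A1, SLC30A7, SLC39A3, SLC39A11 and NR3C1) were chosen after their values were seen. No replicate pair was identical among 18. Chi-square per degree of freedom, between replicates, was 1.45 to 2.55 without tBHP and 2.72 to 64.8 with it, so with tBHP the spread between libraries sets the precision. Coding sequences, lengths and windows came from the principal transcripts of GENCODE release 29.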

Additional observations from a re-analysis of the deposited data

How the results depend on the processing

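The 6 members called in each tBHP response numbered 4 to 7 over the alternatives run, with 4 under a minimum mean of 50, which left MT1F and MT1M untested. Where 7 were called, the added member was SLC30A1 or MT2A. SLC30A1 was lower, or higher with the GC and length trend removed. MT2A was higher after cNSF-HA and lower after fNSF-HA. Calls over all genes ran from 5987 to 7653, 5921 to 7443 and 4267 to 7191 in PBS, cNSF-HA and fNSF-HA cells. No member was called in the interactions under any alternative. Between pre-incubations, the count of members called went from 0 to 2 (MT1E and SLC30A1) for cNSF-HA against fNSF-HA without tBHP in a fit of these groups alone. Over libraries left out, it ranged from 0 to 1 for fNSF-HA against PBS with tBHP and from 0 to 3 for cNSF-HA against fNSF-HA with tBHP, the upper values without fNSF-HA + tBHP replicate 3, when 4024 and 5586 genes were called. Over all genes, the last comparison gave 0 calls in limma against 793 in DESeq2, and fNSF-HA against PBS with tBHP gave 19 against 451 in DESeq2 and 36 in edgeR. The cause was not tested. Removing the GC and length trend turned the tBHP response of SLC30A1 to 0.21 in PBS and 0.28 in cNSF-HA cells, that of SLC30A6 to 0.054, 0.16 and 0.17 in PBS, cNSF-HA and fNSF-HA cells, and that of SCO1 to 0.048 in cNSF-HA cells. With the replicate block as well, these log2 values were the same, while adjusted p-values differed. Over all list genes, it turned the direction of 28 of 102 responses, of which 22 were called in either fit, among them SLC30A7, ATP7A and NR3C1 in every pre-incubation.

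The labels do not say what a replicate number shares, and the numbers were not taken as pairs, since 7 of 45 pairs of same-numbered libraries had a correlation of deviations over 0.1 (-0.12 to 0.33). As a hint from the data, 34 correlations were above 0 and 13 of 18 libraries were closest to their own number. The replicate block raised the genes called from 6995 to 7228, from 6947 to 7176 and from 5733 to 5944 in the responses of PBS, cNSF-HA and fNSF-HA cells. The replicate block left the count of members called at 6 in cNSF-HA and fNSF-HA cells and gave 7 in PBS cells, where SLC30A1 was called (log2 -0.26, limma adjusted p = 0.0240). MT2A was called in cNSF-HA cells in a fit of the compared groups (0.00584). At 0 to 3 reads per library, differences of MT1G and MT1M between pre-incubations without tBHP were not detectable.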
